A study of Mus musculus with 6 samples.

Results

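Ghitm, Cdhr1, Glud1, Mapk8 and Ldb3 are 5 genes of mouse chromosome 14. Each had at least 1 probe set whose signal differed between the striata of mice lacking PGC-1alpha and of wild-type (WT) mice. They were chosen for that difference, from 1 or more probe sets that passed the test of knockout (KO) against WT, so their KO and WT values are given as a description with no test. The array held 13 probe sets annotated to these genes alone, of 45037 probe sets in all, and 5 of 18193 named genes. Each member was found by its symbol in the platform annotation, and every one of its single-symbol probe sets is described. The KO mice were 3 PGC-1a-/- females and the WT mice were 3 PGC-1a+/+ littermate females, all aged 6 months, with 1 Affymetrix array of striatal RNA per mouse. Both genotypes came from breeding heterozygous founders. No source used here states the strain background. The label of KO 3 names cytoplasmic RNA where those of the other mice name total RNA, and all 6 member probe sets called over all mice were also called without KO 3.

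PGC-1alpha, the product of Ppargc1a, is a coactivator that works with nuclear receptors and with the factors NRF1 and GABP to switch on genes of mitochondria and oxidative metabolism. Ghitm and Glud1 encode mitochondrial proteins. Ghitm, also called TMBIM5 or MICS1, is a protein of the inner membrane that helps keep the cristae in shape. Glud1 is glutamate dehydrogenase, the matrix enzyme that interconverts glutamate and alpha-ketoglutarate, which in brain is rich in astrocytes. Mapk8 encodes the stress-activated kinase JNK1. Cdhr1 is a cadherin-related surface protein known from photoreceptors, where it is needed at the outer segments, and from mitral and tufted cells of the olfactory bulb. Ldb3, also called Cypher or ZASP, is a PDZ and LIM protein of the Z-disc in striated muscle.

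The promoter windows of the mitochondrial pair, Ghitm and Glud1, which were both lower in KO, are shown beside that of Cdhr1, the near neighbour of Ghitm that was higher. Sequences are from RefSeq, build GRCm38.p6, written along the strand of the gene, with any of 4 searched motifs in capitals.
Ghitm: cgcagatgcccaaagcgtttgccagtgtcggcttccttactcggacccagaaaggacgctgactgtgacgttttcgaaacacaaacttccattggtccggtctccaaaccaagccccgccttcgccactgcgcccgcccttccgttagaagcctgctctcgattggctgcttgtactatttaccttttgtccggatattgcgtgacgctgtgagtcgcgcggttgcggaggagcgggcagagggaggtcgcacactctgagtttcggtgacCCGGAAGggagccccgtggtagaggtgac
Glud1: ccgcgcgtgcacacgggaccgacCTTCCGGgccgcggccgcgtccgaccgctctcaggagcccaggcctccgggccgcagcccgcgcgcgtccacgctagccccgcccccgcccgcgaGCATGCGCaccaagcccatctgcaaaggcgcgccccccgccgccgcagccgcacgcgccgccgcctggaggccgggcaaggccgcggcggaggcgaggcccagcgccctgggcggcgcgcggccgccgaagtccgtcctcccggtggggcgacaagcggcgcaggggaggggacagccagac
Cdhr1: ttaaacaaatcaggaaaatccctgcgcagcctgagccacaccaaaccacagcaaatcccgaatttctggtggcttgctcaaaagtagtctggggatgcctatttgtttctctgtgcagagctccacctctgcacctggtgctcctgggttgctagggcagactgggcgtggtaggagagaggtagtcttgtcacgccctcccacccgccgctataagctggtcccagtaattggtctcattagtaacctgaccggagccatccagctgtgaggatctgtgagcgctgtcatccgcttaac
The Ghitm window is chr14:37135205-37135504 on the minus strand, the Glud1 window chr14:34310477-34310776 on the plus strand and the Cdhr1 window chr14:37098298-37098597 on the minus strand. The motifs searched on both strands were GCATGCGC for the core of the NRF1 site, CCGGAAG for GABP, AAGGTCA for the oestrogen-related receptors and TAATCC for the photoreceptor factor CRX. The Glud1 window held the NRF1 letters, found in 2.71% of 32851 RefSeq promoter windows of the same length, and the GABP letters on the other strand, found in 8.86%. The Ghitm window shown held the GABP letters once, on the strand of the gene. AAGGTCA, in 4.72% of windows, and TAATCC, in 7.06%, matched neither of these windows. The Cdhr1 window matched none of the 4 motifs. Over all 9 windows listed for the 5 genes, the 1 further promoter with a match was that of Mapk8, which held TAATCC, while of the other two Ghitm windows, which overlap the one shown, 1 held the same GABP letters and 1 held no match. A match describes these letters and no binding.

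The deposited values are signals on a linear scale, adjusted by the authors to a common level on every array. The median signal ran from 43.1 to 45.0 on the KO arrays and from 44.6 to 47.3 on the WT arrays. Ppargc1a itself was lower in every KO mouse than in any WT mouse in all 5 of its probe sets, the differences running from -1.93 to -1.12 on the log2 scale. Of 12 markers of striatal projection neurons fixed for the tissue check, 10 had a probe set. All 10 passed the filter on dim probe sets and 0 were called, and their summed signal ran from 31524 to 35228 in KO and from 30157 to 35741 in WT. In whole striatum, fewer cells of a type and less RNA per cell cannot be told apart.

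Of the 13 member probe sets, 10 were lower in KO and 3 were higher, and in 9 the KO and WT mice did not overlap. After the filter, which left out probe sets with a signal of about 26.8 or less over all arrays, 12 were tested, and 8 of these 12 did not overlap, beside 14.4% of all 27022 probe sets tested, 7.88% lower in KO and 6.52% higher. At a limma adjusted p under 0.05 over all probe sets, 6 of the 12 were called, 4 of them lower and 2 higher. Over all probe sets 0.47% were called, 0.292% lower and 0.178% higher. Because the genes were picked from these calls, nothing is read from the comparison of those shares. All differences below are KO minus WT on the scale of log2 of the signal plus 16, with a standard error (SE) from the same fit.

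**Figure D1:**
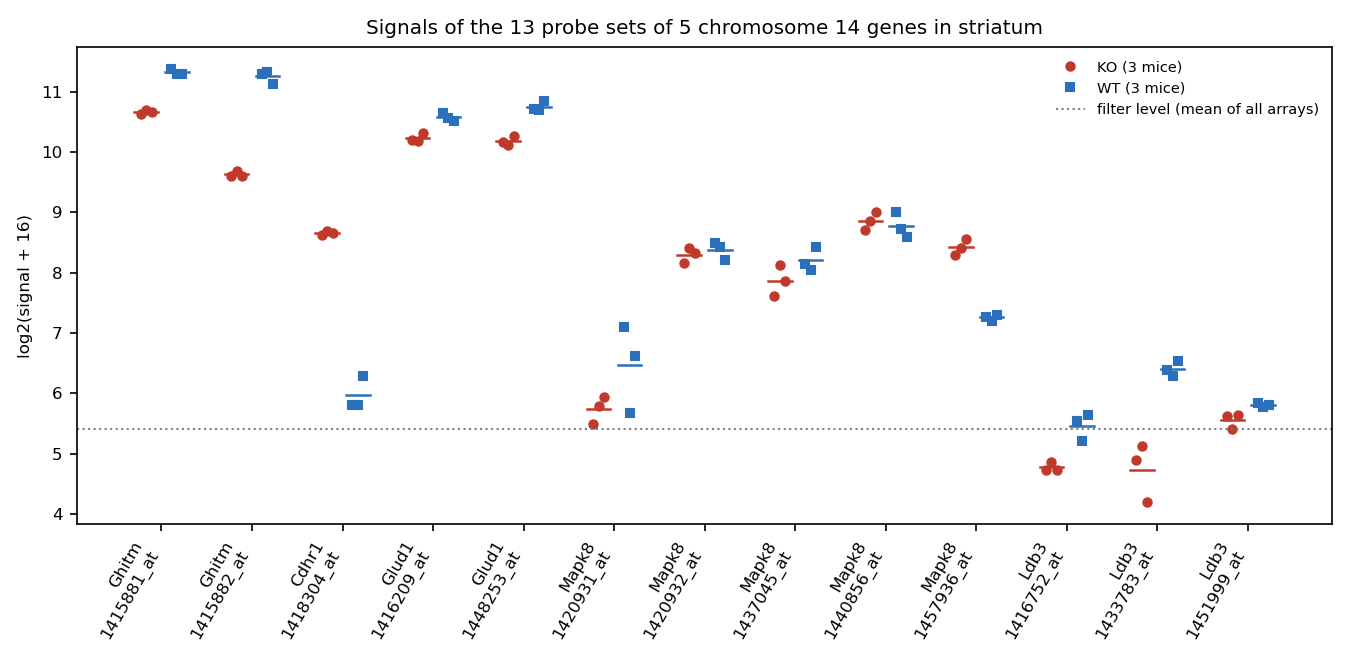
Signal of each of the 13 probe sets, as log2(signal + 16) on the vertical axis, in 3 KO mice (circles, left of each pair) and 3 WT mice (squares, right of each pair), with horizontal lines at the group means. Both Ghitm and both Glud1 probe sets lie lower in every KO mouse than in any WT mouse, Cdhr1 and 1 of the 5 Mapk8 probe sets lie higher, and the dotted line marks the filter level, which Ldb3 1433783_at falls below in KO.

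Ghitm was lower in KO by both of its probe sets. Ghitm 1415882_at read 764.7, 808.6 and 759.0 in KO striata, against 2510.6, 2554.9 and 2231.4 in WT striata. The means were 777 ± 27 in KO and 2432 ± 175 in WT (SD, n = 3 each), a 3.13-fold lower mean signal in KO and a difference of -1.62 (SE 0.076). Every KO mouse was far below every WT mouse, and the KO mice lay closer together than the WT mice. Ghitm 1415881_at read 1568.5, 1644.3 and 1610.5 in KO, against 2654.8, 2509.6 and 2494.9 in WT. Its means were 1608 ± 38 in KO and 2553 ± 88 in WT, 1.59-fold lower in KO, with a difference of -0.66 (SE 0.065). The groups again did not overlap, but the shift was smaller, although both probe sets were designed from the same source record.

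Within each mouse the signal of Ghitm 1415882_at divided by that of 1415881_at was 0.488, 0.492 and 0.471 in KO, against 0.946, 1.02 and 0.894 in WT. This ratio averaged 0.484 ± 0.011 in KO and 0.953 ± 0.062 in WT (SD, n = 3 each), so the unequal fall of the pair was present in all 3 KO mice. The level of such a ratio also reflects how bright each probe set is, and only its change between mice is read here. The differences of the Ghitm pair lay 0.96 apart on the log2 scale. Both Ghitm probe sets pointed the same way while giving unlike sizes, and the size of any transcript change cannot be stated as 1 number. Both calls held whichever array was left out, and that of 1415881_at ended when the fit used no intensity trend.

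Glud1 was also lower in KO by both of its probe sets, which came from a single source record. Glud1 1448253_at read 1133.5, 1092.1 and 1217.3 in KO, against 1656.1, 1650.2 and 1828.7 in WT. Means were 1148 ± 64 in KO and 1712 ± 101 in WT (SD, n = 3 each), 1.49-fold lower in KO, with a difference of -0.57 (SE 0.075). Glud1 1416209_at read 1157.3, 1141.8 and 1265.3 in KO, against 1587.7, 1499.1 and 1446.3 in WT. It averaged 1188 ± 67 in KO and 1511 ± 71 in WT, with a difference of -0.34 (SE 0.074), and was not called. No KO mouse overlapped a WT mouse in either Glud1 probe set. The Glud1 differences lay 0.23 apart. Within each mouse the ratio of 1448253_at to 1416209_at was 0.979, 0.956 and 0.962 in KO and 1.04, 1.10 and 1.26 in WT. Every KO ratio was below every WT ratio, so this pair also fell unequally, with a much narrower gap than for Ghitm. The Glud1 probe sets thus agreed in direction and differed less in size than the Ghitm pair. The call of 1448253_at ended when the fit used no intensity trend.

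Mapk8 had 5 probe sets from 4 source records, and they did not move together. Mapk8 1457936_at read 298.5, 323.6 and 362.2 in KO, against 138.5, 131.4 and 142.2 in WT. That gave means of 328 ± 32 in KO and 137 ± 5.5 in WT (SD, n = 3 each), 2.39-fold higher in KO, with a difference of 1.16 (SE 0.11). All KO mice were above all WT mice in this probe set, the only one of the 5 that was called and the only one whose groups did not overlap. Mapk8 1440856_at read 403.7, 446.6 and 500.8 in KO, against 499.9, 408.9 and 368.7 in WT, with a difference of 0.084 (SE 0.12). Mapk8 1420932_at read 269.1, 325.4 and 306.2 in KO, against 343.1, 328.4 and 279.4 in WT, with a difference of -0.073 (SE 0.11). In both of these the KO and WT mice were intermingled. Mapk8 1437045_at read 180.2, 262.5 and 216.5 in KO, against 267.5, 249.6 and 328.4 in WT, with a difference of -0.34 (SE 0.14). The dimmest, Mapk8 1420931_at, read 29.3, 39.3 and 45.6 in KO, against 121.1, 34.9 and 82.7 in WT, with a difference of -0.72 (SE 0.30). WT 2 lay inside the KO range for 1420931_at and inside it for 1437045_at, and without WT 2 the first of these differences was -1.12.

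Set against the 3 other bright Mapk8 probe sets within each mouse, 1457936_at was higher in every KO mouse. Its ratio to Mapk8 1420932_at was 1.10 ± 0.095 in KO and 0.438 ± 0.062 in WT. To 1437045_at it was 1.52 ± 0.25 in KO and 0.492 ± 0.052 in WT, and to 1440856_at it was 0.729 ± 0.0090 in KO and 0.328 ± 0.055 in WT (SD, n = 3 each). The Mapk8 differences spanned 1.88 on the log2 scale, from -0.72 to 1.16. The call of 1457936_at held whichever array was left out.

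**Figure D2:**
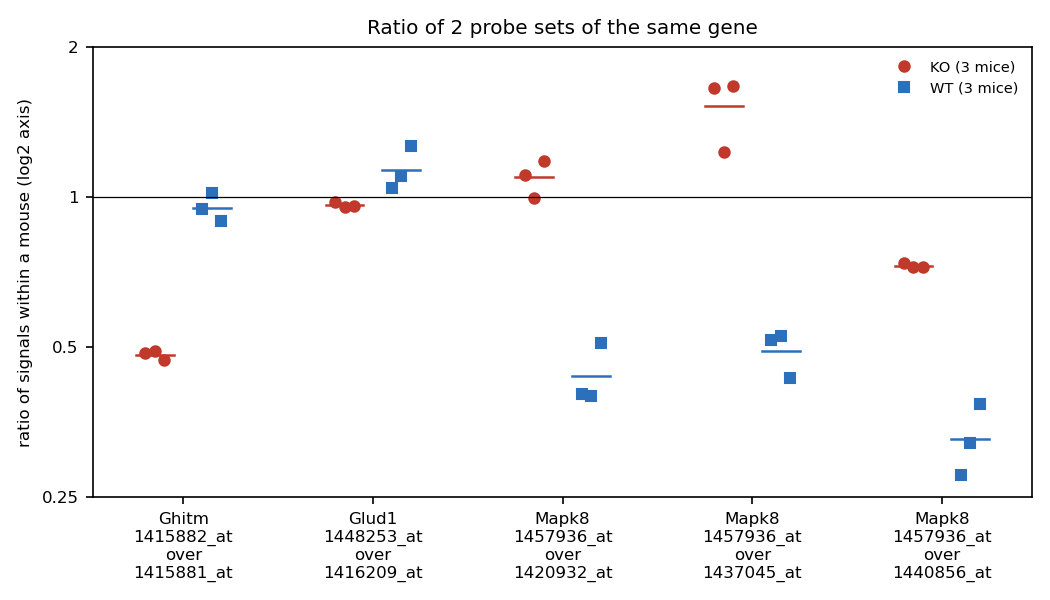
Ratio of the signals of 2 probe sets of the same gene within each mouse, on a log2 axis, for 3 KO mice (circles, left) and 3 WT mice (squares, right), with lines at the group means. The Ghitm ratio lies near 0.484 in KO and 0.953 in WT. The Glud1 ratios lie closer together but are lower in every KO mouse than in any WT mouse, and all 3 Mapk8 ratios are higher in every KO mouse.

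Cdhr1, by contrast, was higher in KO, by its only probe set. Cdhr1 1418304_at read 380.0, 396.6 and 388.1 in KO striata, against 39.9, 40.3 and 62.3 in WT striata. The means were 388 ± 8.3 in KO and 47.5 ± 13 in WT (SD, n = 3 each), 8.17-fold higher in KO, and the difference was 2.69 (SE 0.15). The lowest KO mouse stood 2.34 on the log2 scale above the highest WT mouse, the widest gap among the 13 member probe sets, and the KO mice were nearly equal. The difference ran from 2.61 to 2.85 when 1 array was left out. With 1 probe set, whether other stretches of the Cdhr1 transcript moved as well was not measured.

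No marker of the cells that Cdhr1 is known from was called higher in KO. Of 19 photoreceptor markers, 18 were on the array and 4 passed the filter. The summed signal of all 18 ran from 388 to 466 in KO and from 420 to 492 in WT. Prom1 was the brightest of them, at 164 in KO and 149 in WT on average. None of the defining photoreceptor genes was listed at exactly 0 on average, but the means for Prph2 were 1.63 in KO and 1.30 in WT. Those for Gnat1 were 1.47 in KO and 4.50 in WT, and those for Crx 24.8 in KO and 25.9 in WT. Opn1sw, below the filter, averaged 11.9 in KO and 7.1 in WT, and its groups did not overlap. Pde6g averaged 24.6 in KO and 14.3 in WT, with overlapping groups. Gnat2, Pde6a and Pdc, likewise below the filter, also had higher means in KO with overlapping groups. Cnga1, Opn1mw, Rcvrn, Pde6b, Nrl and Sag, below the filter too, had lower means in KO, with overlapping groups. The only photoreceptor marker called was Pde6h, a phosphodiesterase subunit of cones, which was lower in KO, at 12.4 in KO and 61.8 in WT (difference -1.49, limma adjusted p = 0.013). Pde6h passed the filter through its WT signal, since its KO mean lay below the filter level. Of 8 markers of olfactory bulb mitral and tufted cells, all were on the array, 4 passed the filter and 0 were called. The summed signal of all 8 ran from 1858 to 2249 in KO and from 2028 to 2274 in WT, most of it from Reln, which is also found in neurons outside the bulb. Tbx21, which defines mitral and tufted cells, read 2.43 in KO and 1.77 in WT on average. Eomes, also below the filter, read 12.7 in KO and 29.6 in WT, and its groups did not overlap. Slc17a6 averaged 305.7 in KO and 229.5 in WT and Tbr1 68.0 in KO and 50.0 in WT, both with overlapping groups. Doc2g averaged 46.8 in KO and 46.3 in WT.

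Ldb3 was dim in both genotypes and lower in KO by each of its 3 probe sets, which came from 3 source records. Ldb3 1433783_at read 13.7, 18.9 and 2.3 in KO, against 68.2, 61.8 and 76.9 in WT. It averaged 11.6 ± 8.5 in KO and 69.0 ± 7.6 in WT (SD, n = 3 each), and the difference was -1.67 (SE 0.25). It passed the filter through its WT signal, since the KO mean lay below the filter level. Its call ended with no filter and with no intensity trend, and without WT 1 or WT 3 it was left untested. Ldb3 1451999_at read 33.5, 26.6 and 34.1 in KO, against 41.2, 39.1 and 40.1 in WT, with a difference of -0.25 (SE 0.19), and was not called. Ldb3 1416752_at read 10.6, 13.2 and 10.6 in KO, against 30.9, 21.0 and 33.7 in WT. It lay below the filter and was not tested, and its difference in the fit without a filter was -0.69 (SE 0.22). In all 3 Ldb3 probe sets the KO mice were below the WT mice without overlap. The added constant of 16 pulls dim signals together, so these differences understate any change in signal. The 2 tested Ldb3 probe sets lay 1.42 apart. Of 14 markers of cardiac and skeletal muscle, all on the array, 3 passed the filter and 0 were called. The summed signal of all 14 ran from 489 to 534 in KO and from 445 to 552 in WT, with Myh7 and Acta1 the brightest. Of those that passed, Myh7 averaged 220.5 in KO and 164.7 in WT (difference 0.42). Acta1 averaged 102.4 in KO and 104.4 in WT, and Tnnt2 47.9 in KO and 45.2 in WT. Most of those below the filter had a lower mean in KO. Ckm averaged 21.7 in KO and 32.4 in WT, and Actc1 8.70 in KO and 18.3 in WT, both with overlapping groups. Tnnt3 averaged 2.13 in KO and 3.70 in WT, without overlap. Myl2, Myl1 and Myh4 had a higher mean in KO, Myl2 at 23.4 in KO and 21.6 in WT.

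**Figure D3:**
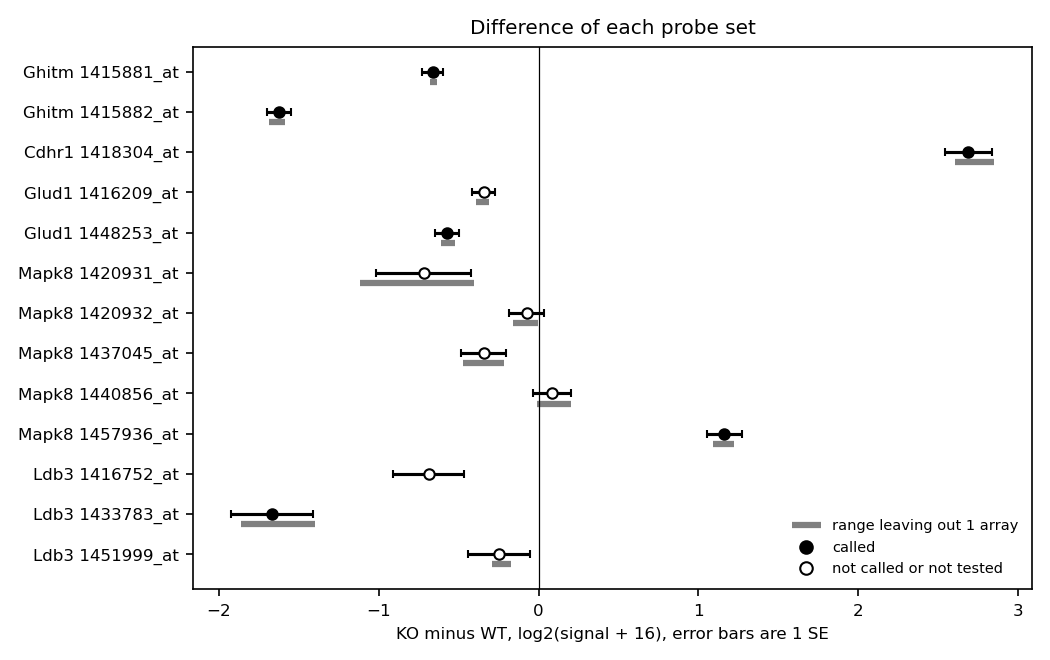
KO minus WT difference of each probe set in log2(signal + 16), with error bars of 1 SE, filled where called, and a grey bar for the range when 1 array was left out. Differences run from -1.67 for Ldb3 1433783_at to 2.69 for Cdhr1, the called differences lie at -0.57 or below or at 1.16 or above, and the 5 Mapk8 probe sets fall on both sides of it.

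Probe sets of genes with a call did not always move in 1 direction on this array. Of 5956 genes with 2 or more tested probe sets, 56 had at least 1 called. In 34 of these 56 all probe sets moved in 1 direction, as in Ghitm, Glud1 and Ldb3, and in 9 every tested probe set was called, as in Ghitm. A further 27 genes, Cdhr1 among them, were called on a single tested probe set. Over the 3363 genes with 2 tested probe sets, the median distance between the differences was 0.14. That of Ldb3 exceeded 99.9% of them, that of Ghitm 99.4% and that of Glud1 68.7%. The Mapk8 span exceeded 99.6% of the 266 genes with 5 tested probe sets, whose median was 0.36. The members were chosen for called probe sets, so nothing is read from these ranks. Probe sequences and the mice's genotypes along chromosome 14 were not used here, so a sequence variant under a probe was not tested for any of the 5 genes.

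The 5 genes lie close together on chromosome 14 in the GRCm38.p6 gene table. Nisch, Shisa2 and Uggt2, also called on chromosome 14, lie outside this stretch and are not members, so nothing is read from the closeness. In that order come Mapk8, Glud1, Ldb3, Cdhr1 and Ghitm, with 24 annotated genes between Mapk8 and Glud1, 7 between Glud1 and Ldb3, 24 between Ldb3 and Cdhr1, and 1 between Cdhr1 and Ghitm. The gene between Cdhr1 and Ghitm, 2610528A11Rik, was below the filter and was named after its values were seen. Its probe set read 33.2, 31.3 and 29.8 in KO, against 9.9, 8.5 and 18.9 in WT, so that its KO mice also stood above its WT mice. Cdhr1 and Ghitm, with this gene between them, thus differed in opposite directions.

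Genes around the 5 were not called. The 10 genes on the array to each side of each member gave 44 neighbours, of which 18 had a probe set bright enough to test. Limma called 0 of their 31 tested probe sets, beside 0.47% over all probe sets. The members were chosen for their calls and left out of the neighbours, so nothing is read from this 0. An unadjusted p under 0.05 was found for 4 of the 31, 12.9%, beside 9.17% of all probe sets tested. Their median difference was 0.093, beside -0.0045 over all probe sets tested, and their differences ran from -0.55 to 0.71. The groups did not overlap in 1 of the 31, beside 14.4% of all probe sets tested. Gdf10, a bone morphogenetic protein relative, had the smallest p. Its signal was 244.4, 125.3 and 193.4 in KO, against 100.4, 141.6 and 80.8 in WT (difference 0.71, SE 0.22, limma adjusted p = 0.29). Ccser2 came next, with 457.5 ± 46 in KO and 380 ± 53 in WT (SD, n = 3 each) by 1453240_a_at (difference 0.26, limma adjusted p = 0.49). Another Ccser2 probe set, 1452223_s_at, differed by -0.16. Bmpr1a, a receptor for bone morphogenetic proteins, sits between Glud1 and Ldb3 and had 5 tested probe sets, with differences from -0.55 to 0.18, none called. Between Mapk8 and Ghitm alone, 12 other genes had 23 tested probe sets and 0 were called. The same limit holds there, since every called gene of that stretch is a member. The 4 neighbours' probe sets at an unadjusted p under 0.05 were all among these 23, 17.4% beside the 9.17% over all.

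**Figure D4:**
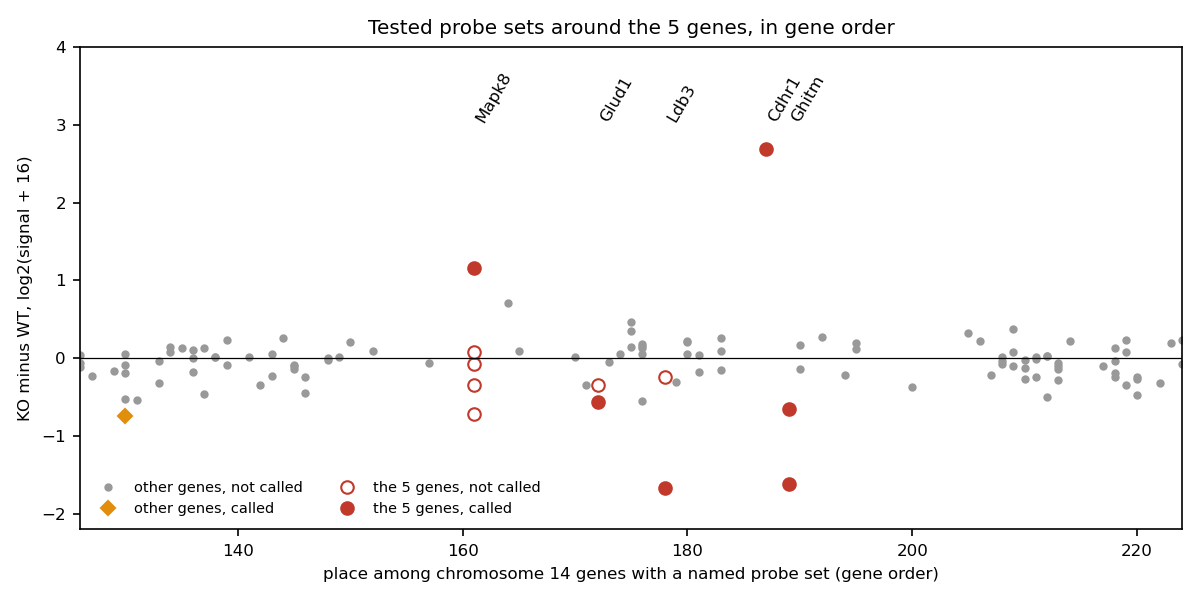
KO minus WT difference in log2(signal + 16) for each tested probe set, against the place of its gene among chromosome 14 genes on the array. The members (large circles, filled where called) run from -1.67 to 2.69, the other genes between Mapk8 and Ghitm (small grey points) from -0.55 to 0.71, and the diamond is Nisch.

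Over the whole of chromosome 14, 9 of 797 tested probe sets from 8 genes were called, 1.13%. With the 5 members left out it was 3 of 785, 0.382%, beside 0.47% over all probe sets. The members were chosen for their calls, so leaving them out lowers this share and nothing is read from it. Chromosome 17 had 1.14% called, chromosome 4 had 1.01% and chromosome 5, which carries Ppargc1a, had 0.751%. The 3 called genes of chromosome 14 outside the members were Nisch, Shisa2 and Uggt2. Nisch encodes nischarin, a cytosolic protein that binds integrin alpha5. Nisch 1433758_at read 150.5, 166.9 and 156.8 in KO, against 263.0, 285.2 and 277.5 in WT (difference -0.74, limma adjusted p = 0.0072). Differences of the 4 remaining Nisch probe sets, from -0.53 to 0.054, were not called. Shisa2, an endoplasmic reticulum protein that dampens Wnt and FGF receptor signalling, read 114.6, 117.2 and 107.2 in KO, against 49.4, 60.5 and 59.7 in WT (difference 0.83, limma adjusted p = 0.033). A second Shisa2 probe set gave 0.76 with overlapping groups. Uggt2, which checks the folding of glycoproteins, averaged 110 ± 16 in KO and 210 ± 36 in WT (SD, n = 3 each; difference -0.83, limma adjusted p = 0.035), while its other probe set gave -0.027.

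Among the genes that work with Glud1 and Ghitm, 0 were called, near the 0.47% over all probe sets. The counts at an unadjusted p under 0.05 given for the lists are to be set beside 9.17% of all probe sets tested. Over all pathway lists, those of JNK1 and Ldb3 included, the groups did not overlap in 39 of 195 probe sets, 20%. The share was 14.4% over all probe sets tested. By list it was 26.4% for glutamate, 20% for inner-membrane organisation, 15.4% for JNK1 and 18.5% for Ldb3. The list of mitochondrial glutamate metabolism and glutamate uptake had 25 genes and 53 probe sets tested, 26 lower and 27 higher in KO, with a median of 0.0067. By limma 0 of the 53 were called, with 7 (13.2%) at an unadjusted p under 0.05. Slc1a3, the astrocyte glutamate transporter GLAST, had the smallest p by 1443749_x_at, which read 940.6, 886.3 and 784.6 in KO, against 468.2, 489.2 and 778.1 in WT (difference 0.61, SE 0.16, limma adjusted p = 0.16). WT 3 stood apart from the other WT mice there, and without WT 3 this probe set was called (difference 0.84, limma adjusted p = 0.0031). Over all mice the other bright Slc1a3 probe sets were also higher in KO. The difference was 0.28 for 1426340_at, without overlap, 0.19 for 1426341_at and 0.045 for 1452031_at. The dim 1439072_at, at 31.8 in KO and 51.0 in WT, differed by -0.56. Glul, the glutamine synthetase of astrocytes, followed, with 733 ± 83 in KO and 582 ± 43 in WT by 1426235_a_at (difference 0.32, limma adjusted p = 0.26). The much brighter Glul 1426236_a_at averaged 6286 ± 222 in KO and 6502 ± 130 in WT (difference -0.049). For the relatives of Ghitm and other genes of inner-membrane organisation, 24 genes had 50 tested probe sets, 34 lower and 16 higher, with a median of -0.053. Limma again called 0, with 5 (10%) at an unadjusted p under 0.05. Cycs, cytochrome c, had the smallest p values. By 1456071_a_at it averaged 4268 ± 280 in KO and 5232 ± 264 in WT (difference -0.29, SE 0.071, limma adjusted p = 0.14). The remaining Cycs probe sets were lower in KO too. Cycs 1422483_a_at differed by -0.25 and 1422484_at by -0.28, both without overlap, and the dim 1445484_at by -0.34. Next was Chchd3, a protein of the cristae junctions, where 1431241_at differed by 0.59 and 1451504_at by -0.21. The other TMBIM relatives of Ghitm, namely Faim2, Grina, Tmbim1, Tmbim4 and Tmbim6, ran from -0.14 to 0.095, and none was called.

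Around JNK1, 27 genes of its pathway had 65 tested probe sets, 30 lower and 35 higher, with a median of 0.014. Limma called 0 of them, with 9 (13.8%) at an unadjusted p under 0.05, where all probe sets gave 9.17%. Dusp1, a phosphatase that switches off MAP kinases, led with 679 ± 63 in KO and 537 ± 12 in WT (SD, n = 3 each; difference 0.33, SE 0.087, limma adjusted p = 0.19). Map3k1, a kinase upstream of JNK, followed with 40.7 ± 8.2 in KO and 73.3 ± 8.7 in WT (difference -0.66, SE 0.18, limma adjusted p = 0.21). The sister kinases JNK2 and JNK3 differed little, Mapk9 by 0.075 to 0.12 over 3 probe sets and Mapk10 by -0.019 and 0.014. For Ldb3, the list of Z-disc and PDLIM proteins had 12 of 21 genes bright enough to test. Their 27 probe sets were 12 lower and 15 higher, with a median of 0.032, 0 called in limma and 3 (11.1%) at an unadjusted p under 0.05. Actn4, an alpha-actinin of non-muscle cells, averaged 620 ± 13 in KO and 479 ± 61 in WT (SD, n = 3 each; difference 0.37, limma adjusted p = 0.19). Actn1, the other non-muscle alpha-actinin, averaged 172 ± 49 in KO and 101 ± 19 in WT by 1452415_at (difference 0.66, limma adjusted p = 0.22). Its other tested probe sets moved less, 1428585_at by 0.16 and 1427385_s_at by 0.087.

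For the brightest probe set of Ghitm, of Cdhr1 and of Glud1, the 3 probe sets with the most similar values over the 6 arrays came from genes on other chromosomes. Mapk8, Ldb3 and Ghitm 1415882_at were not compared in this way. Likeness was the root mean square distance between log2 signals over 6 arrays, each taken relative to its WT mean, so it mostly reflects the size of the KO shift. Nearest to Ghitm 1415881_at were Scg5 on chromosome 2 (distance 0.041), Kcnab2 on chromosome 4 (0.060) and Atm on chromosome 9 (0.065). Scg5 1423150_at, for a chaperone of prohormone convertase, read 1863.6, 1956.4 and 1800.5 in KO, against 3015.8, 3037.7 and 2868.9 in WT. Nearest to Cdhr1 were single probe sets of Rps9 on chromosome 7 (0.13), Pam on chromosome 1 (0.47) and Fam241a on chromosome 3 (0.65). Nearest to Glud1 1448253_at were Ide on chromosome 19 (0.065), Zmat5 on chromosome 11 (0.068) and Gm12992 on chromosome 4 (0.069).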

How the data were processed

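Striatal RNA of 3 KO and 3 WT mice was measured with 1 array per mouse. The deposited intensity values, 1 per probe set and array, are MAS5 signals per the submitters' processing notes, with no version or settings stated. The authors had scaled each array, since the trimmed mean (2% cut at each end) was about 149.96 on all 6, and changes are therefore relative to the whole array. No detection call or probe-level value was used, and the number of arrays limits the precision.

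Of 45101 probe sets, 64 controls were left out. The platform annotation gave 34945 probe sets a single symbol, 34741 of them matched to the GRCm38.p6 gene table, and 932 several. Groups and replicate numbers came from the sample titles. An offset of 16 was added and log2 taken, and a filter kept probe sets whose mean log2 signal exceeded the 40th percentile, about 26.8 in signal. KO and WT were compared with limma 3.58.1 in R 4.3.3 (lmFit, eBayes with an intensity trend), with Benjamini-Hochberg adjustment over 27022 probe sets and a threshold of 0.05. The procedure was tested on simulated data. The replicate numbers were not used to pair KO with WT mice in the main fit.

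The 5 genes, the lists of their pathways and of cell markers, and the rules for naming genes were chosen with earlier results of these data known. Named are all member probe sets, called neighbours and called genes of chromosome 14, for each list its called genes or the 2 with the smallest p, the 3 probe sets nearest to Ghitm, Cdhr1 and Glud1, and relatives of the members. Alternatives were quantile normalization, centring on the median, offsets of 1 and 64, the filter omitted or set at the 60th percentile, no trend, robust estimation, the replicate block, a threshold of 0.1 and leaving out each array.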

Additional observations from a re-analysis of the deposited data

How the results depend on the processing

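Calls among the 5 genes depended most on the variance model and, for Ldb3, on the filter. Without the intensity trend 25 probe sets were called in all in place of 127, of them 3 on chromosome 14, and these 3 were the member probe sets Ghitm 1415882_at, Cdhr1 1418304_at and Mapk8 1457936_at. The calls of Ghitm 1415881_at, Glud1 1448253_at and Ldb3 1433783_at ended there, and the cause was not tested. With no filter 52 were called in all, 5 of them members, and Ldb3 1433783_at was not among these. It was left untested by an offset of 1, by the filter at the 60th percentile, and without WT 1 or WT 3, because its mean then lay below the filter. A threshold of 0.1 gave 194 calls in all. Leaving out 1 array gave 66 to 101 calls in all (66 without KO 1, 74 without KO 2 and 69 without WT 2), 6 to 9 on chromosome 14 (6 without WT 1), 5 to 6 among the members and 0 to 1 among the pathway lists, the 1 being Slc1a3 without WT 3. The neighbours, from which the called members had been left out, had 0 calls under all 16 alternatives. Among member probe sets 1 difference changed sign, that of Mapk8 1440856_at, which ran from -0.011 to 0.20 when 1 array was left out. The replicate block gave 100 calls in all and 6 among the members, so it changed no member call. Deviations of KO and WT mice with the same number correlated at -0.0091, -0.035 and 0.017. Those of mice with different numbers ran from -0.041 to 0.049. No likeness by number was seen, but such correlations cannot exclude a shared litter.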
